A study of Mus musculus with 48 samples.

Results

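A set of 8 genes that take up glutamate and turn it into glutamine or energy was followed in mouse astrocytes. The members, chosen by function, were Slc1a2, Slc1a3, Glul, Slc38a3, Slc38a5, Glud1, Got1 and Got2, all 8 of which were found by symbol among the 24421 genes of each deposited table. Gene expression had been measured by bulk RNA-seq in 48 libraries labelled as astrocytes, in 15 groups. Cortex, hippocampus and olfactory bulb were each sampled on days 1, 7 and 14 after birth (P1, P7, P14), with 3 libraries a group except 4 for cortex at P14, and no genotype or treatment is given for these ages. At postnatal day 28 (P28) libraries labelled Gabbr1 cKO, a conditional knockout of a GABA-B receptor subunit gene, were compared with Gabbr1 control in cortex (4 cKO and 4 control), hippocampus (4 and 2) and olfactory bulb (3 and 3). Controls and knockouts alike carry a tamoxifen label in hippocampus and olfactory bulb, and in cortex in control replicates 3 and 4 and cKO replicate 4. The labels name neither the driver of the Cre recombinase, the Gabbr1 alleles, the strain and the sex, nor how the astrocytes were separated from dissociated tissue, nor the animals behind each library, so p-values here measure the spread between libraries.

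As background, astrocytes clear glutamate released at synapses through the sodium-driven transporters GLT-1 (Slc1a2) and GLAST (Slc1a3). Glutamine synthetase (Glul) joins the glutamate with ammonia to give glutamine, which leaves through the system N transporters SNAT3 (Slc38a3) and SNAT5 (Slc38a5) and serves neurons as a source of new transmitter. Glutamate can instead be oxidised, through glutamate dehydrogenase (Glud1) or the aspartate aminotransferases of the cytosol (Got1) and the mitochondrion (Got2). GLAST is known as the earlier of the transporters in development and GLT-1 as the main one of the mature forebrain.

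The libraries held 1773226 to 15008466 reads assigned to genes. Values are normalized read counts, meaning reads divided by 1 factor per library, and each of the 6 tables (a region, at the developmental ages or at P28) was scaled on its own, so tests stay within a table. The label was checked with 8 astrocyte markers, none of which was at 0 in any group. In the developmental libraries the markers of other cells moved with age. The summed level of 10 neuron markers was 7485 to 10649.9 in the P1 libraries of cortex and 287 to 545 in those of P14. It was likewise lower at P14 in hippocampus (444 to 635 against 6034 to 8050.2) and olfactory bulb (1968 to 3188 against 14725 to 18290.2). At P1 the neuron sums lay above the astrocyte sums in hippocampus and olfactory bulb and overlapped them in cortex, although the lists differ in length. In olfactory bulb they still lay above at P7 (9412 to 14866 against 3912 to 7688). The sum of 7 oligodendrocyte markers was higher at P14 in all 3, for example 15292 to 26082 against 336 to 394 in cortex, as was that of 7 microglia markers (cortex 1145 to 2511 against 304 to 462). The sum of 4 markers of dividing cells was lower at P14 in cortex (65.1 to 198 against 924 to 1338) and hippocampus, and that of 4 choroid plexus markers higher in hippocampus (4027 to 8457 against 12 to 53.1). In bulk libraries, fewer cells of a type and less RNA per cell cannot be told apart, and the part of these shifts in the changes below was not tested. Library numbers in the labels run on separately for each age, so age cannot be told apart from handling. Gabbr1 itself was lower in cKO libraries by -3.45 ± 0.29, -1.84 ± 0.39 and -1.48 ± 0.33 (log2, SE) across cortex, hippocampus and olfactory bulb. That difference passed in cortex only (limma adjusted p = 4.4e-05, 0.936 and 0.877), although the groups did not overlap in any region. The cortex difference was -4.11 without the tamoxifen label (3 cKO, 2 control) and -2.29 with it (1 cKO, 2 control). All hippocampus and olfactory bulb libraries at P28 carry the label.

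Between P1 and P14 most of the 8 genes rose in every region. In cortex 6 of 8 were higher at P14 (Slc1a2, Slc1a3, Glul, Glud1, Got1 and Slc38a3), Got2 was lower and Slc38a5 did not pass. In hippocampus the same 6 were higher and Got2 lower among 7 tested, and Slc38a5 fell below the minimum mean of 10. In olfactory bulb 6 of 8 were higher, with Slc38a5 in place of Got1, and neither Got1 nor Got2 passed. Here and below a gene is said to rise or fall when its limma adjusted p (Benjamini-Hochberg over all genes tested in the table) was under 0.05. Among all genes tested, 24%, 21% and 24.8% were higher at P14 and 40.3%, 28.5% and 31.4% lower across cortex, hippocampus and olfactory bulb. Libraries of P1 and P14 did not overlap for 63.7%, 54.7% and 62.2% of all genes tested in those regions, those of P1 and P7 for 53.5%, 49.9% and 47.3%, and those of P7 and P14 for 50.5%, 41.3% and 52.7%. With TMM scaling the cortex split became 3571 higher and 3896 lower, against 2843 and 4765 with the deposited scaling. The median log2 change of the tested genes of the cycle was 1.24, 2.40 and 3.62 in the 3 regions, beside -0.27, -0.29 and -0.24 for all genes tested. The 8 astrocyte markers, a list of Aldh1l1, Aqp4, Gfap, Gja1, Gjb6, S100b, Fgfr3 and Slc4a4, had medians of 2.49, 4.19 and 5.74 over the same interval, and 7, 8 and 8 of them rose.

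**Figure D1:**
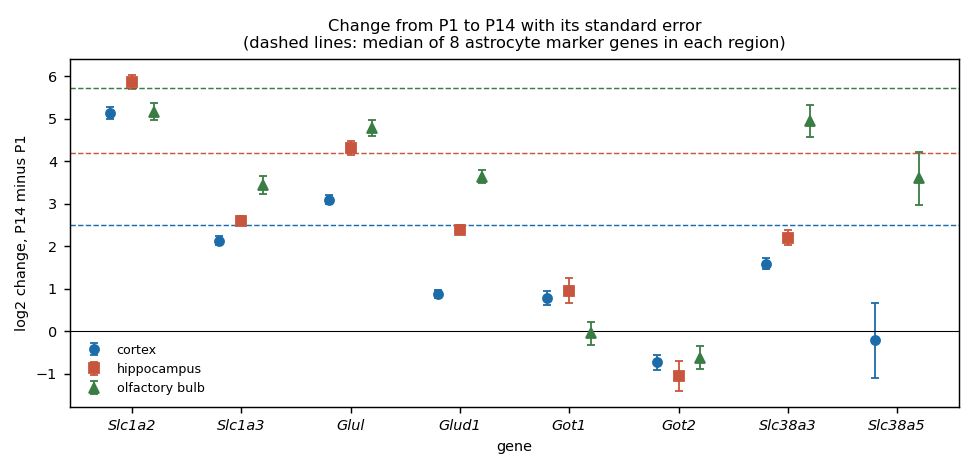
Log2 change from P1 to P14 of each of the 8 genes (points, with standard error bars) across cortex, hippocampus and olfactory bulb, on log2(normalized read count + 1). Dashed lines give the median change of 8 astrocyte markers in each region (2.49, 4.19 and 5.74). Slc1a2 lies between 5.14 and 5.87 in every region, Glud1 ranges from 0.89 in cortex to 3.64 in olfactory bulb, with the cortex rise turning to -0.35 under quantile normalization, and Got2 lies below 0 in all 3, without passing the test in olfactory bulb. Slc38a5 in hippocampus was too low to be tested.

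The starts of 3 genes that rose in all regions are shown because these genes moved together across age. The reference table (RefSeq, GRCm38.p6) held windows for 7 of the 8, all but Slc38a3, and the Slc1a2 window lies 47779 bases inside the gene, at an internal start, so it is not printed. Each line gives the 250 bases before the RefSeq start, 5′ to 3′ on the gene's strand. Capitals mark GC boxes (GGGCGG or its reverse complement CCGCCC) and CCAAT boxes (CCAAT or ATTGG), which do not overlap each other here.
Slc1a3, chr15:8710808-8711057, minus strand: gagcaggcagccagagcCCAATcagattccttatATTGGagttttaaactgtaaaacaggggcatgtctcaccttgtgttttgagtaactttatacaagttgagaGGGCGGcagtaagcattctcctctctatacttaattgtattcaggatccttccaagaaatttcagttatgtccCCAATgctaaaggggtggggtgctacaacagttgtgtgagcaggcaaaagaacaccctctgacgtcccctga
Glul, chr1:153899679-153899928, plus strand: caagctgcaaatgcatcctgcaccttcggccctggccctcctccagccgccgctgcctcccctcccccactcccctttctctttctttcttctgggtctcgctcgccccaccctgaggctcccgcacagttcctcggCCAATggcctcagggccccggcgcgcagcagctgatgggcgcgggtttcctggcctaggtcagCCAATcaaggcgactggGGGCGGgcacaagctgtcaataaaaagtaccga
Glud1, chr14:34310477-34310726, plus strand: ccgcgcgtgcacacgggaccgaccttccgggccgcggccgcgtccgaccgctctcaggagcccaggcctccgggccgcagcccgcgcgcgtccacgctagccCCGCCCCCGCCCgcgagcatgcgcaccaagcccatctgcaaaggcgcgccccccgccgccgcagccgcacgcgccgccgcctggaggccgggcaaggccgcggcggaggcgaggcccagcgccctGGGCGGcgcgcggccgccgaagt
The windows differ in base composition although the genes rose together. Slc1a3 has 2 CpG dinucleotides and a GC content of 44.8%, Glul 15 and 64.8%, and Glud1 46 and 82%, beside a median of 6 CpG over 32851 windows of the same length. A GC box was found 1 time in Slc1a3, 1 time in Glul and 3 times in Glud1, and in 32.7% of all windows. CCAAT boxes were found 3 times in Slc1a3, 2 times in Glul and 0 times in Glud1, and in 33.8% of all windows. Of the other motifs searched on both strands, a TATA box (TATAAA) was found in Slc1a3 only, 161 bases before the start, and in 12.4% of all windows. Neither an E-box (CACGTG, in 6.02% of all windows) nor an NFI site (TTGGCA, in 12.3%) was found in the 3. These are matches of letters and not measured binding sites.

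Slc1a2 had the largest log2 change of the 8 in every region, with Slc38a3 close to it in olfactory bulb. The gene lies at chr2:102658659-102790784 on the plus strand (GRCm38, GENCODE M21), and an antisense gene, Gm13872, overlaps its exons, so that reads from the other strand could have been counted with it if the counting ignored strand, which is not given in the sources used here. Cortex libraries held 10871, 14580.1 and 13572 normalized read counts at P1, 61611, 84819 and 73362 at P7 and 430277, 457749, 443645 and 492764 at P14. Hippocampus libraries held 5923, 7599 and 6228, then 55716, 45805 and 71420.4, then 362867, 399091 and 388523. Olfactory bulb libraries held 1851, 2467 and 2028, then 5718, 6358 and 3574, then 72248, 83476 and 72076. No 2 ages overlapped in any region. From P1 to P14 the log2 difference was 5.14 ± 0.15 (SE, adjusted p = 1.65e-11) in cortex, 5.87 ± 0.17 (SE, adjusted p = 8.91e-10) in hippocampus and 5.17 ± 0.20 (SE, adjusted p = 2.18e-08) in olfactory bulb (limma), which are 35.3-, 58.5- and 36.1-fold rises. These ranked 27th of 11822, 25th of 11578 and 74th of 11490 among all changes in the tables, from the most positive. The timing differed between regions: by P7, 48.5% of the log2 rise had taken place in cortex and 53.0% in hippocampus, but 24.5% in olfactory bulb, a difference that was not tested.

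By P14 Slc1a2 took a large share of all sequenced RNA. Its part of the reads assigned to genes went from 0.346% at P1 through 2% at P7 to 9.37% at P14 in cortex (9.05 to 9.78% over the 4 libraries). In hippocampus it went from 0.209% through 1.63% to 8.46%, and in olfactory bulb from 0.0678% through 0.181% to 2.11%. A share of reads needs no scaling between tables but depends on the other RNA in a library. By it the 3 olfactory bulb libraries lay below every cortex and hippocampus library at P14. How many of all genes separate in this way between regions was not counted. Divided by the summed exon length of 13.133 kb, Slc1a2 was the highest of 23350 ranked genes in cortex and hippocampus at P14 (34730.0 ± 2047 and 29201 ± 1418 normalized reads per kb, SD, n = 4 and 3). The ranking holds only genes matched to GENCODE. Before division by length, the ribosomal RNA gene Rn45s had more reads than Slc1a2 in each of these libraries. In olfactory bulb it ranked 7th, at 5782 ± 497 (n = 3), beside Glul, which ranked 5th at 6144 ± 321, with overlapping spreads.

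**Figure D2:**
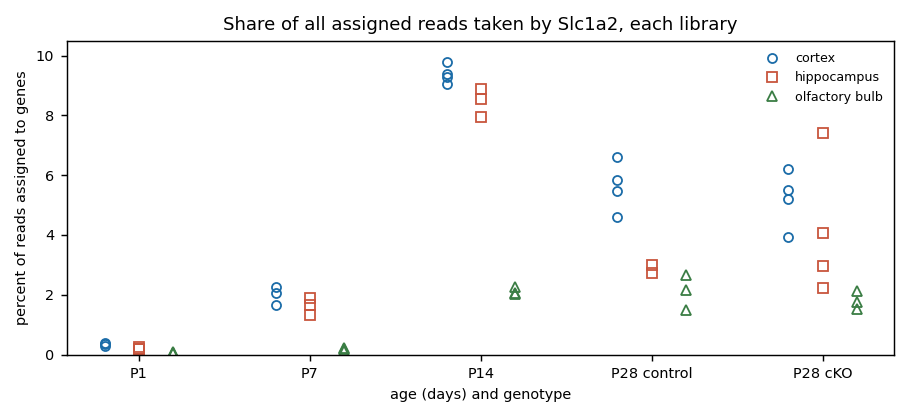
Percent of the reads assigned to genes that fell on Slc1a2 in each of the 48 libraries (points), by age and P28 genotype, for cortex, hippocampus and olfactory bulb. The P14 cortex libraries lie between 9.05 and 9.78% and the P14 hippocampus libraries between 7.95 and 8.89%, while the olfactory bulb libraries stay between 2.02 and 2.27%.

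Slc1a3 rose too, earlier in its course and by less. The gene lies at chr15:8634124-8710764 on the minus strand. Its libraries held 4282, 5549 and 5579.6 at P1, 14736, 16418 and 15476 at P7 and 23656, 22819.6, 20599 and 22221 at P14 in cortex. In hippocampus they held 4317, 3997 and 3865, 12032, 11275 and 13969 and 24643, 24341 and 24841 at the same ages, and in olfactory bulb 2066, 3281 and 2768, 6005, 8375 and 4813 and 32391, 29228 and 25999.7. Every age was separate from the one before it. The P14 against P1 difference was 2.13 ± 0.10 (SE, adjusted p = 1.55e-09), 2.60 ± 0.11 (SE, adjusted p = 7.61e-09) and 3.45 ± 0.21 (SE, adjusted p = 3.7e-07) across cortex, hippocampus and olfactory bulb (limma, log2). In cortex 75.5% of this log2 rise had taken place by P7, in hippocampus 61.9% and in olfactory bulb 35.6%. The later step, P14 against P7, was 0.52 ± 0.10 (SE, adjusted p = 0.00108) in cortex and 0.99 ± 0.11 (SE, adjusted p = 7.8e-05) in hippocampus, and both turned slightly negative under quantile normalization (-0.064 and -0.040).

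Reads of Slc1a2 against Slc1a3 in the same library gave a ratio that no scaling factor can move, apart from the 1 added to each value. Its log2 value in cortex was 1.34, 1.39 and 1.28 at P1 and 4.18, 4.33, 4.43 and 4.47 at P14. In hippocampus it was 0.46, 0.93 and 0.69 at P1 and 3.88, 4.04 and 3.97 at P14. In olfactory bulb it was -0.16, -0.41 and -0.45 at P1 and 1.16, 1.51 and 1.47 at P14. The ratio was higher in every P14 library than in any P1 library of its region, by 3.01, 3.27 and 1.72 on the log2 scale. The exact two-sided permutation p was 0.0571 in cortex and 0.1 in hippocampus and in olfactory bulb, the smallest that 4 against 3 and 3 against 3 libraries can give, and 0.185 after adjustment over 24 ratio comparisons. The P7 means stood at 2.23 ± 0.15, 2.20 ± 0.17 and -0.30 ± 0.20 (SD, n = 3 each), so that the olfactory bulb had not left its P1 mean of -0.34 ± 0.16. Regions were also set against each other on this ratio, a comparison added after its values were seen. Olfactory bulb lay below cortex and below hippocampus at all 3 ages without overlap (exact permutation p of 0.0571 or 0.1, adjusted p = 0.113 over 9 comparisons), and cortex and hippocampus overlapped at P7 (difference 0.03, exact p = 0.7). The ratio counts reads and is not corrected for the longer transcript of Slc1a2.

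**Figure D3:**
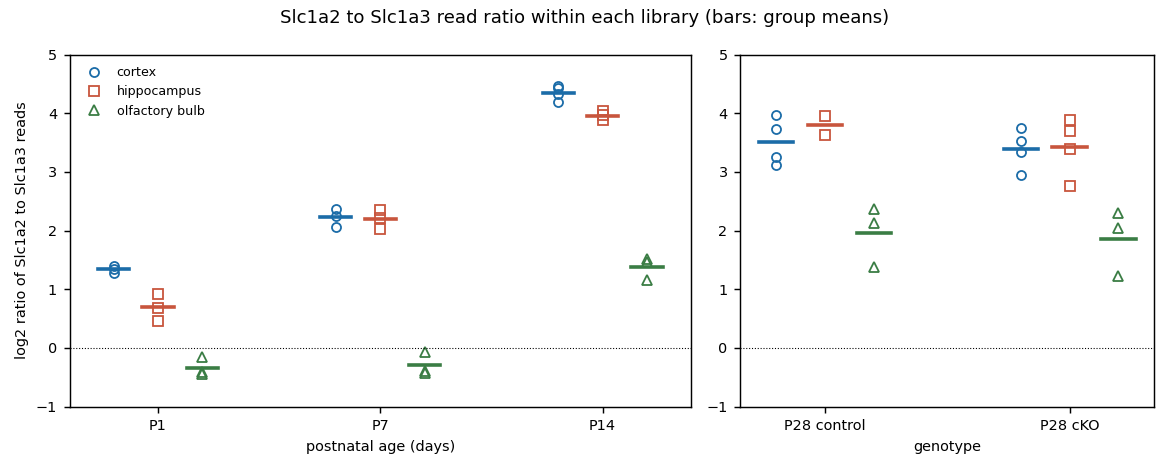
Log2 ratio of Slc1a2 to Slc1a3 reads in each library (points), with group means as bars, by age (left) and by genotype at P28 (right), for 3 regions. Values climb from P1 to P14 in cortex (1.34 to 4.35) and hippocampus (0.69 to 3.96), stay near -0.3 in olfactory bulb until P7, and overlap between P28 control and cKO libraries.

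Glul, the glutamine synthetase gene at chr1:153899944-153909723 on the plus strand, rose in step with Slc1a2. Cortex libraries held 2384, 3019 and 2921 at P1, 7331, 7907 and 6673 at P7 and 25781, 22801, 22308 and 24039 at P14. Hippocampus libraries held 967, 1157 and 732, then 3994, 3565 and 4925, then 18562, 17816 and 19717. Olfactory bulb libraries held 726, 796 and 702, then 1848, 2393 and 1273, then 19728, 19877 and 21643. Ages did not overlap in any region, and the 3 regions came to similar normalized levels at P14 from unlike ones at P1, a description across separately scaled tables. The P14 against P1 difference was 3.10 ± 0.10 (SE, adjusted p = 4.33e-11) in cortex, 4.32 ± 0.17 (SE, adjusted p = 4.38e-09) in hippocampus and 4.78 ± 0.19 (SE, adjusted p = 2.8e-08) in olfactory bulb (limma, log2). The share of reads gives the same picture: 0.488%, 0.412% and 0.569% at P14, from 0.0738%, 0.0302% and 0.0237% at P1. The protein-coding gene Teddm2 overlaps Glul exons on the opposite strand, and reads of the pair cannot be told apart if the counting ignored strand.

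Glud1, which oxidises glutamate to 2-oxoglutarate, rose in every region, least in cortex. It lies at chr14:34310727-34345265 on the plus strand. Cortex libraries held 8414, 9884 and 9443 at P1 and 17738, 17470.3, 15915 and 17299.9 at P14. Hippocampus libraries held 3122, 3336 and 3107 and 16789, 15342 and 18327, and olfactory bulb libraries 1172, 1241 and 1309 and 17235, 14815 and 14496. P14 lay above P1 in every library, and the lowest starting level was in olfactory bulb. The difference was 0.89 ± 0.09 (SE, adjusted p = 2.4e-06) in cortex, 2.40 ± 0.12 (SE, adjusted p = 2.68e-08) in hippocampus and 3.64 ± 0.16 (SE, adjusted p = 4.72e-08) in olfactory bulb (limma, log2), and the cortex direction turned under quantile normalization (-0.35). Per kb of exon, Glud1 was the highest of the 8 at P1 in cortex (2196 ± 179 normalized reads per kb, SD, n = 3) and in hippocampus (757 ± 30.5). By P14 Glul had passed it in both, at 7142 ± 466 against 4063 ± 193 in cortex and 5627 ± 288 against 3995 ± 355 in hippocampus. The log2 ratio of Glul to Glud1 reads rose accordingly, from -1.74 ± 0.07 to 0.47 ± 0.06 in cortex, in hippocampus from -1.77 ± 0.29 to 0.16 ± 0.06, and in olfactory bulb from -0.74 ± 0.14 to 0.40 ± 0.19 (SD). P1 and P14 did not overlap in any region, with the smallest exact permutation p these designs allow (0.0571, 0.1 and 0.1, adjusted p = 0.185).

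**Figure D4:**
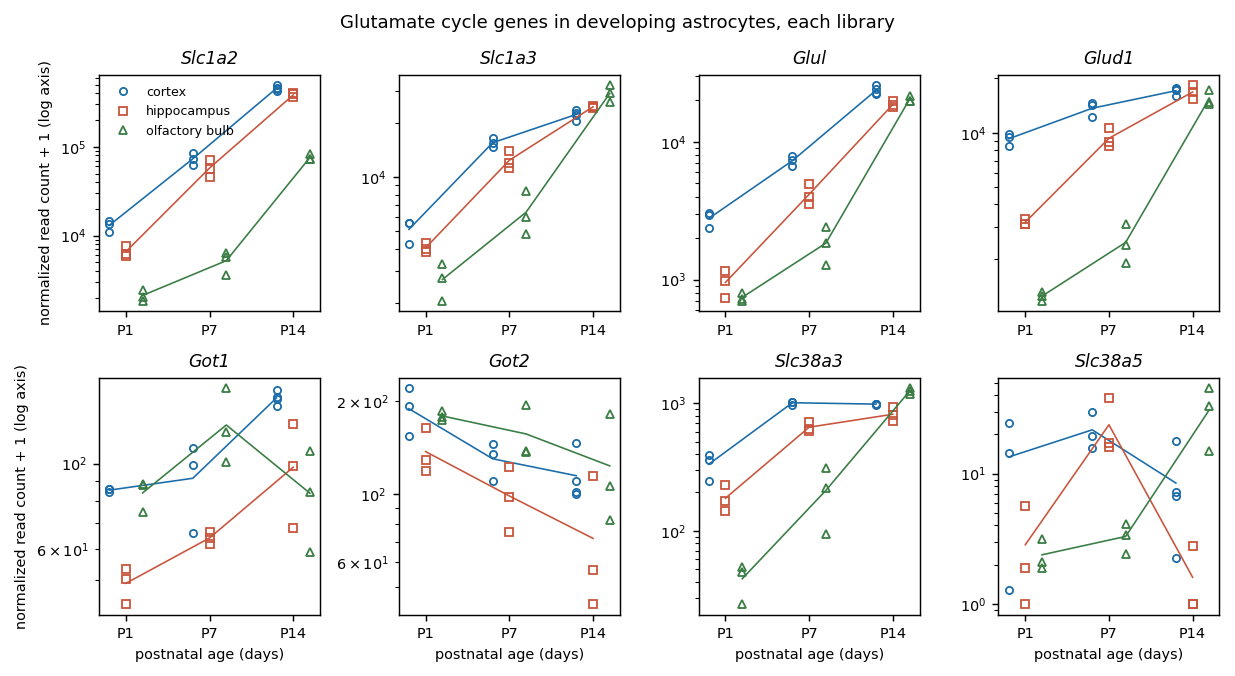
Normalized read count + 1 (log axis) of the 8 genes in each developmental library (points) with lines through the group means, by age and region. Tables of the 3 regions were scaled separately. The cortex course of Slc38a3 levels off after P7, and the olfactory bulb course rises further. The hippocampus course is a little higher at P14 without overlap, a step of 0.33 on the log2 scale that did not pass. Slc38a5 peaks at P7 in hippocampus (15.1 to 36.8) but at P14 in olfactory bulb (13.9 to 44.1).

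The aspartate aminotransferases were low beside Slc1a2, Slc1a3, Glul and Glud1, and from P1 to P14 they moved in opposite directions in cortex and hippocampus. Got1, the cytosolic enzyme gene at chr19:43499752-43524605 on the minus strand, had 84.7, 84.9 and 83.4 in cortex at P1, 108, 64.9 and 98.3 at P7 and 154, 148, 140.3 and 146 at P14. In cortex the rise came after P7, with a P7 against P1 difference of 0.07 ± 0.18 (SE, adjusted p = 0.797) and a P14 against P7 difference of 0.72 ± 0.17 (SE, adjusted p = 0.00285). Hippocampus libraries went from 52.4, 42.3 and 49.2 at P1 to 97.8, 67.3 and 125 at P14, a difference of 0.96 ± 0.29 (SE, adjusted p = 0.0181). Without hippocampus P1 replicate 2 this call was lost (adjusted p = 0.0634), as it was with P1 and P14 alone in the fit (0.0523). In olfactory bulb Got1 had 87.1, 74 and 87.7 at P1, 155, 119 and 99.7 at P7 and 83.5, 57.9 and 107 at P14, and neither step passed (0.56 ± 0.27 (SE, adjusted p = 0.231) and -0.61 ± 0.27 (SE, adjusted p = 0.0834), limma, log2). The later step passed as a fall without P14 replicate 3 (-0.81, adjusted p = 0.0243) and the earlier one as a rise with P1 and P7 alone in the fit (0.56, adjusted p = 0.0362) or with array weights (0.62, adjusted p = 0.0108).

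Got2, the mitochondrial enzyme gene at chr8:95864134-95888547 on the minus strand, was lower at P14 in the means of every region. Cortex libraries held 219, 192 and 153 at P1, 144, 109 and 134 at P7 and 109, 98.7, 146 and 101 at P14. Hippocampus libraries held 128, 162 and 118, 74.3, 97 and 121 and 43, 114 and 55.5, and olfactory bulb libraries 177, 184 and 173, 194, 136 and 137 and 81.5, 105 and 180.5. In cortex and hippocampus no P14 library reached the lowest P1 library, and in olfactory bulb replicate 3 of P14 lay among the P1 libraries. The P14 against P1 difference was -0.73 ± 0.17 (SE, adjusted p = 0.00235) in cortex, -1.05 ± 0.35 (SE, adjusted p = 0.0273) in hippocampus and -0.62 ± 0.28 (SE, adjusted p = 0.076) in olfactory bulb (limma, log2). The hippocampus call was lost without P1 replicate 1 or 2 or without P14 replicate 1 or 3 (adjusted p from 0.0622 to 0.102) with edgeR (0.0579) and with P1 and P14 alone in the fit (0.0540), and olfactory bulb passed without P14 replicate 3 (-0.94, adjusted p = 0.00406). The smaller cortex difference at P7 (-0.53 ± 0.19 (SE, adjusted p = 0.0404)) did not pass without P1 replicate 1 or 2 or P7 replicate 2 or 3, and its adjusted p lay between 0.0534 and 0.0699 under TMM scaling, quantile normalization, no filter, no trend, edgeR and DESeq2. Reads recovered for Got2 ran from 31 to 103 in the P14 hippocampus libraries and from 41 to 130 in those of olfactory bulb. Neuron markers fell over the same interval, as given above, and their part in the fall of Got2 was not tested. A processed pseudogene, Got2-ps1, could have taken part of its reads, and Gm45760 overlaps its exons on the opposite strand, so their reads cannot be told apart if the counting ignored strand. The log2 ratio of Got2 to Got1 fell by 1.52, 2.01 and 0.58 across cortex, hippocampus and olfactory bulb without overlap, with exact permutation p of 0.0571, 0.1 and 0.1 (adjusted p = 0.185). The olfactory bulb fall was 0.30 without P14 replicate 1.

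Slc38a3, a glutamine exporter at chr9:107650634-107669530 on the minus strand, reached a plateau at P7 in cortex. Its libraries there held 246, 360.2 and 389 at P1, 1031, 977 and 1019 at P7 and 990.1, 974, 980.4 and 993 at P14. Its first step was 1.63 ± 0.14 (SE, adjusted p = 1.25e-06) and the second -0.04 ± 0.13 (SE, adjusted p = 0.832) (limma, log2). Hippocampus libraries held 170.2, 226 and 142, then 608, 628 and 709.6, then 723, 808 and 926, with steps of 1.87 ± 0.18 (SE, adjusted p = 2.08e-05) and 0.33 ± 0.18 (SE, adjusted p = 0.183). Olfactory bulb libraries began far lower, at 25.8, 50.6 and 46.9, and held 218, 308 and 94.3 at P7 and 1179, 1305 and 1249.5 at P14. Both steps passed there, at 2.20 ± 0.38 (SE, adjusted p = 0.00438) and 2.74 ± 0.38 (SE, adjusted p = 0.00019), a 30.7-fold rise from P1 to P14 against 3.02-fold in cortex and 4.61-fold in hippocampus. The differences between regions were not tested, since the tables were scaled apart.

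Slc38a5, the other system N transporter gene (chrX:8271133-8280179, plus strand), was near the limit of detection, and its course differed by region. In olfactory bulb its libraries held 2.15, 0.881 and 1.1 at P1, 3.07, 1.43 and 2.37 at P7 and 13.9, 44.1 and 31.9 at P14, from 2 to 6, 2 to 5 and 7 to 32 reads. Here it rose late, with a P14 against P7 difference of 3.12 ± 0.63 (SE, adjusted p = 0.00198) on the log2(value + 1) scale, where the changes of low genes come out too small. In hippocampus it stood at 4.63, 0.891 and 0 at P1, 36.8, 16.3 and 15.1 at P7 and 0, 0 and 1.79 at P14, with no overlap between P7 and either neighbour and no test at this level. In cortex the libraries of 1 age spread widely (0.284, 13.3 and 23.6 at P1, 28.9, 14.7 and 18.6 at P7 and 5.67, 1.26, 16.7 and 6.23 at P14), and no step passed except P14 against P7 when only those ages were fitted (-1.66, adjusted p = 0.0454). The summed level of endothelial markers was highest at the same age as Slc38a5 in olfactory bulb and hippocampus, but the ages of cortex overlapped. Olfactory bulb sums of 8 such markers were 58.1 to 82.3 at P1, 125 to 169 at P7 and 326 to 1738 at P14. There 7 of 7 tested rose between P1 and P14, with Ly6c1 at 0 at P1. The P7 sums already lay above those of P1, while Slc38a5 overlapped between these ages. In hippocampus the sum was 112 to 236 at P1, 429.6 to 761 at P7 and 170.2 to 334 at P14, with Cldn5 and Ly6c1 at 0 at P14. In cortex the sum was 99.4 to 675 at P1, 527 to 702 at P7 and 362 to 1357 at P14. The Slc38a5 mean there was lowest at P14 (12.4, 20.7 and 7.47 at the 3 ages). Within cortex P1, the library with 0.284 normalized reads of Slc38a5 had an endothelial sum of 99.4, against 468 and 675 in the others. Sums of 5 mural cell markers were 38.4 to 82.3, 190 to 222 and 215 to 1245 at the 3 ages of olfactory bulb. In hippocampus they were 133 to 177, 413 to 612 and 97 to 228, and in cortex the ages overlapped. The part of endothelial or mural RNA in the Slc38a5 values was not tested.

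Step by step, the genes of the cycle were called more often than the background. From P1 to P7, 5 rose in each region (Slc1a2, Slc1a3, Glul, Glud1 and Slc38a3), of 8 tested in cortex and olfactory bulb and 7 in hippocampus, where 15.6%, 7.59% and 11.2% of all genes tested rose. Got2 fell in cortex at this step, where 18.1% of genes fell. From P7 to P14, 5 of 8 rose in cortex (Slc1a2, Slc1a3, Glul, Glud1 and Got1) and 4 of 7 in hippocampus (Slc1a2, Slc1a3, Glul and Glud1), beside 18.6% and 12.5% of all genes. In olfactory bulb 6 of 8 rose at the later step (Slc1a2, Slc1a3, Glul, Glud1, Slc38a3 and Slc38a5), beside 20.4%. Under quantile normalization 2 rose and 1 fell in cortex and 1 rose in hippocampus at the later step. That method gives genes of equal rank 1 shared value, and Slc1a2 ranked 2nd, after Rn45s, in every cortex library of P7 and P14 and every hippocampus library of P14.

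Of the wider pathway, 31 further genes were in the tables, in a list that holds other transporters of glutamate and glutamine, vesicular transporters, enzymes that exchange amino groups, and mitochondrial carriers. Between P1 and P14, 10 of 26 tested rose and 11 fell in cortex, 9 of 26 rose and 10 fell in hippocampus, and 11 of 25 rose and 7 fell in olfactory bulb. These shares lie nearer the background than those of the 8 genes, with list medians of 0.02, 0.21 and 0.23.

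Among transporters, Slc7a11, the cystine-glutamate exchanger, rose from 336 ± 74 to 2129 ± 101 in cortex (SD, n = 3 and 4) and by 2.68, 3.66 and 2.26 on the log2 scale across cortex, hippocampus and olfactory bulb. Its partner subunit Slc3a2 rose by 1.83, 1.81 and 0.86. Slc1a1, the mainly neuronal glutamate transporter EAAC1, fell in cortex (-1.58 ± 0.25 (SE, adjusted p = 9.7e-05)) and hippocampus (-6.11 ± 0.52 (SE, adjusted p = 2.4e-06), limma) and did not pass in olfactory bulb (-0.71). The system A glutamine transporters Slc38a1 and Slc38a2 fell in all 3 regions. Slc38a1 changed by -2.52, -3.23 and -3.33 and Slc38a2 by -2.40, -3.38 and -2.42. In these bulk libraries the glutamine transporter genes of the SLC38 family thus did not move as 1 group. The vesicular transporter gene Slc17a6 fell in all 3 regions (-5.42, -8.44 and -5.07). It is known from excitatory neurons. Neuron marker sums fell over the same interval, and their part in the falls of Slc1a1, Slc38a1, Slc38a2 and Slc17a6 was not tested.

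Among the enzymes, Gpt2, the mitochondrial alanine aminotransferase, rose by 1.34, 1.69 and 2.28, and Oat, ornithine aminotransferase, by 0.82, 1.68 and 2.22. Bcat1, the cytosolic branched-chain aminotransferase, changed by -2.97, -4.62 and -3.42, and Asns, asparagine synthetase, by -2.50, -2.45 and -4.94, all falls that passed. Slc25a18, a mitochondrial glutamate carrier, rose in each region. Its mean went from 261 ± 60.8 to 1097 ± 24.2 in cortex, in hippocampus from 41.8 ± 9.98 to 576 ± 47.9, and in olfactory bulb from 28.8 ± 6.04 to 919 ± 156 (SD, n = 3, and 4 for cortex P14). The log2 differences were 2.09 ± 0.15 (SE, adjusted p = 4.87e-08), 3.78 ± 0.20 (SE, adjusted p = 4.9e-08) and 4.96 ± 0.23 (SE, adjusted p = 5.59e-08) (limma). Mdh1 and Mdh2, malate dehydrogenases of the malate-aspartate shuttle to which Got1 and Got2 also belong, rose in all regions, Mdh1 by 1.16, 1.85 and 0.92.

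The closest profiles over age were sought among 10395 genes tested in all 3 developmental tables, by the mean of Pearson's r over the tables (10, 9 and 9 libraries). These r are descriptions, since all libraries share the course of age. Slc1a2 was most like Glul (mean r 0.997), then Tspan7 and Aldh5a1, and Glul was in turn most like Slc1a2, then Aldh5a1 and Acsbg1. Slc1a3 was most like Timp3, Tmem229a and Gja1 (0.995 to 0.993), Glud1 most like Cd81, Scd1 and Mmd2 (0.994 to 0.990) and Slc38a3 most like Aqp4, Trim9 and Tril (0.989 to 0.985). Got1 and Got2 had weaker likenesses, led by Lix1 (0.889) and Klhl29 (0.881). Among the genes of the cycle themselves, Slc1a2 and Got1 had r of 0.81 in cortex and 0.85 in hippocampus but -0.24 in olfactory bulb.

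At P28 no gene of the cycle differed between Gabbr1 cKO and control at the adjusted threshold in any region, among 7 tested in each. Over all genes tested the call rate was 0.00982% in cortex (Gabbr1 alone, of 10188) and in hippocampus and olfactory bulb 0% (of 11639 and of 11539). By edgeR and DESeq2 no gene of the cycle passed either. At an unadjusted p under 0.05, limma found 1 of 7 in cortex and 1 of 7 in olfactory bulb but 0 in hippocampus (in the order of cortex, hippocampus and olfactory bulb, edgeR 1, 0 and 0, DESeq2 1, 1 and 0), beside 2.17%, 2.54% and 3.02% of all genes in that order. In cortex none of the 7 was without overlap, beside 1.89% of all genes. None of the 22, 25 and 27 further pathway genes tested passed. A p above the threshold does not show that the genotypes are alike, and the standard errors give the precision.

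Slc38a3 was the gene behind both unadjusted differences. Cortex controls held 739, 841, 684 and 739 and cKO libraries 1027, 979, 1520.0 and 801 normalized read counts. The groups overlapped, and the difference of 0.49 ± 0.20 had an unadjusted p of 0.0282 and an adjusted p of 1.00 (limma). It was 0.55 among cortex libraries without the tamoxifen label (3 cKO, 2 control) and 0.17 among those with it (1 cKO, 2 control). In olfactory bulb controls held 1248, 426 and 1264 and cKO libraries 1651, 1508 and 1625. These did not overlap, which was so for 10% of all genes tested, and the difference was 0.86 ± 0.37 (unadjusted p = 0.0416, adjusted p = 0.877). Without control replicate 2, a library with 0.476% of its reads on the ribosomal RNA gene Rn45s where the other olfactory bulb P28 libraries had at least 28.8%, the difference fell to 0.34 (adjusted p = 0.999). In hippocampus the sign was opposite, -0.19 ± 0.44, with controls at 789 and 639 and cKO libraries at 889.9, 303, 939.8 and 588. Replicate 2 of the hippocampus cKO libraries, the lowest of these, had 0.594% of reads on Rn45s, and without it the difference took the other sign (0.15, adjusted p = 0.931).

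Slc1a2 at P28 varied more between libraries than between genotypes. Cortex controls held 253877, 229240.0, 163231 and 131941 and cKO libraries 229161, 192885, 185364 and 110743, a difference of -0.12 ± 0.36 (SE, adjusted p = 1.00). In hippocampus the values were 134875 and 144017 and 199644, 317179, 145014 and 90584, and in olfactory bulb 89275, 84642 and 51750.4 and 86309.7, 71698 and 58926, with differences of 0.29 ± 0.87 (SE, adjusted p = 0.964) and -0.03 ± 0.32 (SE, adjusted p = 0.982) (limma, log2). Without hippocampus cKO replicate 2, the highest there, the difference was -0.02 (adjusted p = 0.996). In cortex the 3 libraries with the tamoxifen label were the lowest of their genotype. Those 3 also have the highest library numbers in cortex at P28. The tamoxifen label there cannot be told apart from that numbering. Among cortex libraries without the label (3 cKO, 2 control) the log2 difference was -0.26 (adjusted p = 0.654), and among those with it (1 cKO, 2 control) it was -0.41, a value with no test. Glul and Glud1 followed the same split in cortex. Glul stood at 22670.4, 21991, 15448 and 13174 in controls and 20532, 18837, 18969.7 and 11565 in cKO libraries, and Glud1 at 9262, 9090.0, 6843 and 5236 and 10159.9, 8409, 8023 and 5042. The genotype differences of Glul were -0.06 ± 0.25, 0.19 ± 0.42 and 0.14 ± 0.23 across cortex, hippocampus and olfactory bulb, and those of Glud1 0.05 ± 0.25, 0.34 ± 0.41 and -0.20 ± 0.25 (log2, SE). With 1 library left out, that of Slc1a2 changed sign in cortex (up to 0.10, without cKO replicate 4) and olfactory bulb (up to 0.11, without control replicate 1), that of Glul in all 3 regions (cortex up to 0.12, without cKO replicate 4) and that of Glud1 in cortex (-0.12 without control replicate 4).

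The 2 hippocampus controls held 8668 and 11612 of Slc1a3 and the 4 cKO libraries 15450.4, 21534, 13857 and 13341, higher without overlap, as in 15% of all genes when both directions are counted. The difference of 0.65 ± 0.39 (SE, adjusted p = 0.936) did not pass (limma), and it was 0.50 without cKO replicate 2. Astrocyte marker sums moved with it, at 13755 to 17285 in controls and 21429.9 to 55369.5 in cKO libraries, as did those of 5 mural cell markers (114 to 181 and 266 to 334, with Kcnj8 at 0 in controls) and of 7 microglia markers (125 to 153 and 159 to 736). Their part in the result was not tested. The sums of 4 choroid plexus markers overlapped (67643 to 138905 and 11229 to 126793), with medians of 103274 in controls and 61135.5 in cKO libraries. In the controls they lay above the astrocyte marker sums, although the lists differ in length. The part of choroid plexus RNA in the hippocampus values was not tested. In cortex and olfactory bulb the Slc1a3 differences were 0.01 ± 0.19 and 0.07 ± 0.24. Got1 in hippocampus was lower in cKO libraries (245, 155, 257 and 271) than in controls (376 and 301), without overlap and without passing (-0.57 ± 0.33 (SE, adjusted p = 0.936)). Got1 in cortex and olfactory bulb (0.22 ± 0.28 and 0.15 ± 0.35) and Got2 in the 3 regions (-0.14 ± 0.35, -0.37 ± 0.35 and 0.23 ± 0.32) overlapped between genotypes. With 1 library left out, the sign changed for Slc1a3 in cortex and olfactory bulb, for Got1 in olfactory bulb and for Got2 in cortex, with values between -0.11 and 0.05. Slc38a5 was below the filter in all P28 tables, with at most 6 reads in any library and 0 in all 4 hippocampus cKO libraries, against 1 and 2 reads in the controls.

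**Figure D5:**
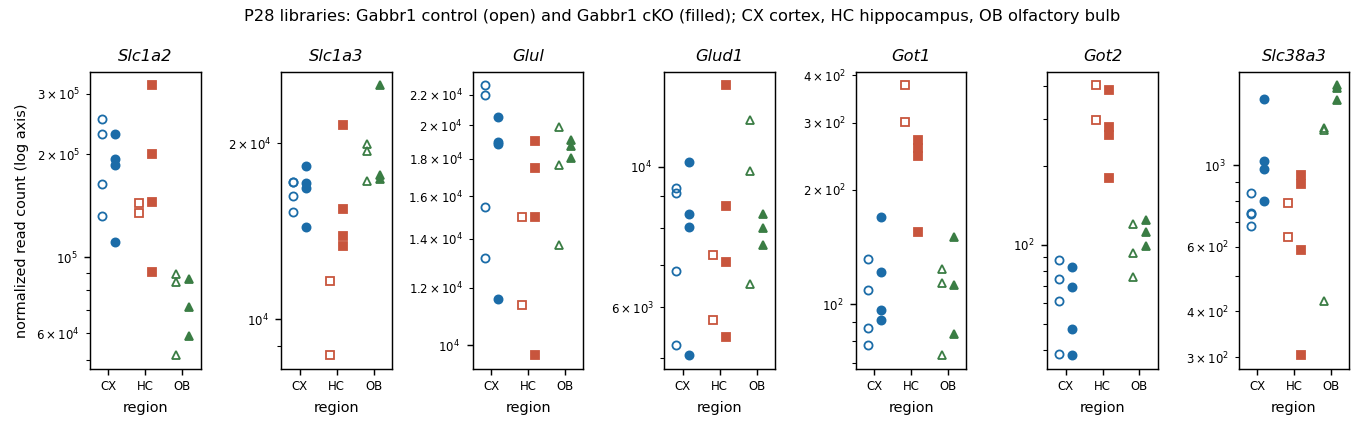
Normalized read count (log axis, not starting at 0) of 7 genes in each P28 library, control (open) and cKO (filled), in cortex (CX), hippocampus (HC) and olfactory bulb (OB), each region scaled on its own. Controls and cKO libraries overlap except for Slc38a3 in olfactory bulb, Slc1a3 and Got1 in hippocampus, and no gene passed the adjusted test.

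Ratios within a library gave the same picture at P28. Slc1a2 to Slc1a3 was 3.52 ± 0.40 in cortex controls and 3.39 ± 0.34 in cKO libraries (log2, SD, n = 4 each), 3.80 ± 0.23 and 3.43 ± 0.49 in hippocampus (n = 2 and 4) and 1.96 ± 0.52 and 1.86 ± 0.56 in olfactory bulb (n = 3 each). All 3 overlapped, with exact permutation p of 0.686, 0.4 and 0.7, where the smallest possible are 0.0286, 0.133 and 0.1. Of the 12 ratio comparisons at P28, Glul to Glud1 in olfactory bulb was the one without overlap (1.22 ± 0.04 in cKO against 0.89 ± 0.27, exact p = 0.1, adjusted p = 0.185). The difference of 0.34 was 0.18 without control replicate 2, the library low in Rn45s reads. With 1 library left out, the Slc1a2 to Slc1a3 difference changed sign in cortex (0.02 without control replicate 1 or cKO replicate 4) and in olfactory bulb (0.11 without control replicate 1 and 0.21 without cKO replicate 3). The low olfactory bulb ratio of Slc1a2 to Slc1a3 seen at P14 was also present at P28, below every cortex and hippocampus library.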

How the data were processed

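Bulk RNA-seq of total RNA from astrocytes was analysed in 48 libraries of 15 groups, each group taken from the age, region and genotype labels. Per the labels' protocols, tissue was dissociated and libraries were made from at most 1 ng of total RNA with a low-input kit (Trio RNA-seq). The submitters' processing notes name mm10, STAR 2.5.0a, DESeq2 1.20.0, FastQC and MultiQC, without their settings. The counting program, strand setting and annotation are not given in the sources used here. The deposited values, made by the authors, are a signal per gene: reads divided by 1 size factor per library, separately in each of 6 tables. Reads were recovered from the step of the values, and 100% of values came out whole within 0.01 of a read (a weak check for olfactory bulb P28 cKO replicate 2, whose step is 0.995). Rn45s, a ribosomal RNA gene, took 0.476 to 38.0% of reads.

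Genes with a mean of at least 10 in a table were compared on log2(value + 1) with limma 3.58.1 (lmFit, eBayes with trend) in R 4.3.3. P-values were adjusted with Benjamini-Hochberg over all genes tested in a table, with a threshold of 0.05. Ratios of 2 genes in a library used exact two-sided permutation tests. As alternatives, the pseudocount was set to 0.1 or 8, the minimum mean to 100 or none, and scaling to TMM or quantile. Others were limma without trend or with array weights, edgeR 4.0.16 (quasi-likelihood) and DESeq2 1.42.0 on recovered reads, only the 2 ages compared, cortex P14 without replicates 3 and 4, each library left out, and the label set of P28 cortex as a covariate. Cortex P28 libraries without the tamoxifen label alone were tried after seeing the data. The fitting procedure was tested on simulated data. Members, lists and tests were chosen with earlier results of these data known. Named genes are the members, Gabbr1, the 2 largest called rises and falls of each pathway list, marker genes that moved with a member, and the 3 genes most like each member, leaving out predicted genes. Not every gene that meets this rule is named. Pcx stands for the list's Pc, by RefSeq synonym. Gene positions and exon lengths come from GENCODE M21 (23350 of 24421 symbols matched), promoters from RefSeq.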

Additional observations from a re-analysis of the deposited data

Results flagged for a closer look

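In 47 sets of values, each a gene or ratio in 1 of the 4 groups of 4 libraries, 4 values stood apart by their gap to the nearest other library. Chance alone flags about 1 in 20 sets, and sets share libraries. The log2 ratio of Got2 to Got1 was 0.0537 in cortex P14 replicate 3, against -0.577 to -0.492 in the other 3 libraries. The same ratio was -1.75 in cortex P28 control replicate 2, against -0.340 to -0.214 in the other controls. Slc38a5 stood at 5.76 normalized read counts in cortex P28 cKO replicate 4, against 0 to 0.799 in the other cKO libraries, and the log2 ratio of Slc38a3 to Slc38a5 was 6.89 in that library, against 9.72 or more. It is the only cortex cKO library with the tamoxifen label. The cortex controls split the same way, with Slc38a5 means of 0.528 without the label and 3.58 with it (2 libraries each).

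Slc38a5 moved in opposite directions in 2 regions between P7 and P14. Its mean rose by 27.7 normalized read counts in olfactory bulb, where every P14 library lay above every P7 library, and fell by 22.1 in hippocampus, where every P14 library lay below. The difference between the regions was not tested, since the tables were scaled separately.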

How the results depend on the processing

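Counts of cycle genes called stayed within 1.5 times the reported count in 207 of 209 alternatives. The exceptions were both P14 against P7 under quantile normalization, with 3 called in cortex and 1 in hippocampus. Counts of further pathway genes did so in 35 of 36, the exception being olfactory bulb P7 against P1 with edgeR (7 called against 4). Of 1550 values for single genes, 1514 stayed on their side of the threshold, 22 lost a call, 9 gained one and 5 called differences turned, all 5 under quantile normalization: Slc1a3 P14 against P7 in cortex (-0.064) and hippocampus (-0.040), Glud1 P14 against P7 in cortex (-0.35) and hippocampus (-0.23), and Glud1 P14 against P1 in cortex (-0.35). Under that method Slc1a2 P14 against P7 in cortex became 0, because it ranked 2nd in all 7 libraries and genes of equal rank are given 1 value. The cause of the other turns was not tested. Most lost or gained calls were Got2 and Got1. Beside those given above, P14 against P7 in hippocampus passed without P14 replicate 2 for Got1 (0.80) and Got2 (-0.95), and in olfactory bulb without P14 replicate 3 for Got2 (-0.72). With array weights Got2 P7 against P1 passed in hippocampus (-0.52). The Glud1 difference of P14 against P7 in cortex was lost without P7 replicate 3 (adjusted p = 0.0548). Among the 1514, 54 differences that passed under neither setting changed sign, 28 of them with 1 library left out. All 204 ratio alternatives stayed on the reported side of the threshold and 8 changed sign, each with 1 library left out at P28, in designs of which only cortex at P28 can reach a p under 0.05. TMM scaling moved the all-gene median of P14 against P1 in cortex from -0.27 to -0.05 and changed no direction of a called cycle gene. No paired analysis was made because the labels, which number the libraries, do not say which of them share an animal. Depth limits Slc38a5, whose values rest on 0 to 92 reads, and Got1 and Got2, which rest on 31 to 770 reads.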
